A study of Mus musculus with 27 samples.

Results

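Ovaries of aged and young mice that received no drug were compared in experiment 2, the second of 2 experiments in a series of mouse ovary RNA profiles. The members are the 10 untreated libraries of that experiment, taken by their labels out of 27 libraries in all: 5 from young mice and 5 from aged mice. A further 4 libraries of experiment 2, from aged mice under Auranofin (a gold compound known to block thioredoxin reductase), entered the model to help estimate the spread and in no comparison. In experiment 1 the untreated groups numbered 5 young and 4 aged mice, set here beside those of experiment 2, and another 4 aged mice had the thioredoxin reductase 1 inhibitor TRi-1. The labels give no ages, strain, genotype, dose, time or cycle stage, and call both untreated groups control. The tissue is whole ovary, so fewer cells of a type and less RNA per cell cannot be told apart. Each label names a mouse and a replicate number and does not state how the animals were housed or collected, so p-values measure the spread between these samples.

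RNA was read by QuantSeq, which sequences a tag near the 3' end of polyadenylated RNA, and gene counts were compared. Levels are CPM, counts relative to normalised library size, and are not per length, so they are compared between libraries and not between genes. Changes are log2 fold changes, aged minus young, ± standard error, from edgeR's quasi-likelihood test with n = 5 libraries in each group. A gene is called higher or lower when its Benjamini-Hochberg adjusted p is under 0.05, and every adjusted p below is edgeR's unless another tool is named. Totals ran from 6782228 to 9799253 counts in the young and from 10139429 to 14027986 in the aged libraries.

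The ovary is built of follicles, each an oocyte wrapped in a glycoprotein coat, the zona pellucida, and surrounded by granulosa cells, with theca cells outside that make androgen. Follicles are set up early in life and used up with age, and the aged mouse ovary is known for gathering macrophages, lymphocytes and plasma cells in its stroma. Senescent cells, which have left the cell cycle for good, are known for secreting chemokines, cytokines and proteases, many of them under NF-kB, a transcription factor held in the cytoplasm by inhibitor proteins until a signal frees it.

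The 10 libraries held markers of granulosa cells, steroid-making cells, stroma and vessels, as whole ovary should. Oocyte markers were low in all 5 aged libraries and in young replicate 3, a library that stood apart. Multidimensional scaling placed age on the first dimension (30.8% of variance), with young libraries from -2.39 to -0.54 and aged libraries from 1.31 to 2.07. Young replicate 3 lay at 3.77 on the second dimension (19.5%), where the other 9 libraries lay between -1.30 and 0.11. Its summed level of the 6 tested genes of the oocyte coat and secreted oocyte factors was 3.78 CPM, against 30.4 to 115 CPM in the other 4 young libraries and 1.83 to 8.64 CPM in the aged ones.

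**Figure D1:**
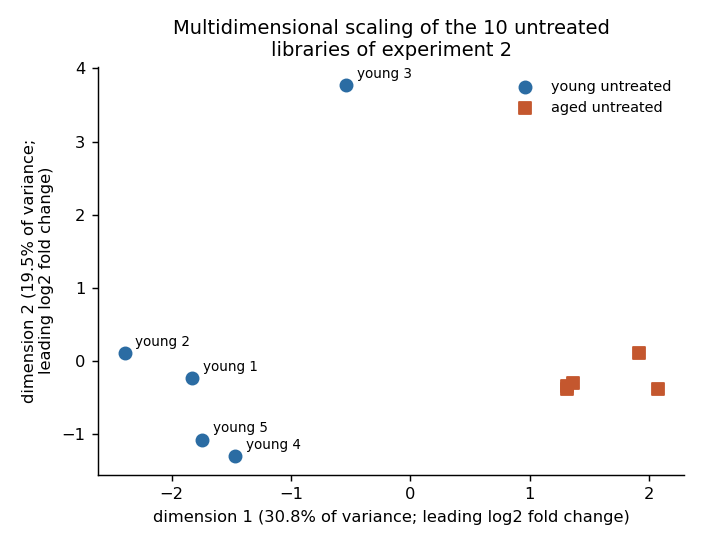
Multidimensional scaling of log2 CPM in the 10 untreated libraries of experiment 2, with circles for young and squares for aged libraries and the leading log2 fold change on both axes. The aged libraries sit to the right at 1.31 to 2.07 on dimension 1, and young replicate 3 sits alone at 3.77 on dimension 2.

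The same library was low in summed genes of other follicle cells and high in those of oviduct and uterine epithelium. In young replicate 3 the 18 granulosa and cumulus genes summed to 372 CPM, against 1386 to 2217 CPM in the other young libraries, and the 13 theca and steroid synthesis genes to 221 CPM, against 2593 to 5468 CPM. The 12 adipocyte genes summed to 184 CPM there and to 1292 CPM or more in the other young libraries. Oviduct and uterine epithelium genes summed to 6842 CPM, against 1360 to 2954 CPM, genes of neurons and Schwann cells to 363 CPM, against 70.7 to 133 CPM, and neutrophil genes to 1378 CPM, against 142 to 373 CPM. The neutrophil list includes Ltf, which is also on the oviduct and uterine list, and Lcn2, which epithelia also make. Its sum is therefore not a measure of neutrophils alone. Markers of T cells (15.4 CPM), macrophages (982 CPM) and plasma cells (444 CPM) lay in that library within or just below the range of the other young libraries. Surface epithelium and mesothelium genes summed to 2234 CPM there, against 1097 to 1803 CPM in the other young libraries. Ciliated cell genes were not raised (181 CPM, against 115 to 271 CPM). Young replicate 3 is therefore a library low in the summed follicle lists and high in the oviduct and uterine epithelium list. Counts of called genes are given below with it and without it. Haemoglobin genes took 0.289% to 5.19% of counts in young and 1.26% to 5.50% in aged libraries, so the content of blood also varied, and its part in the results was not tested.

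**Figure D2:**
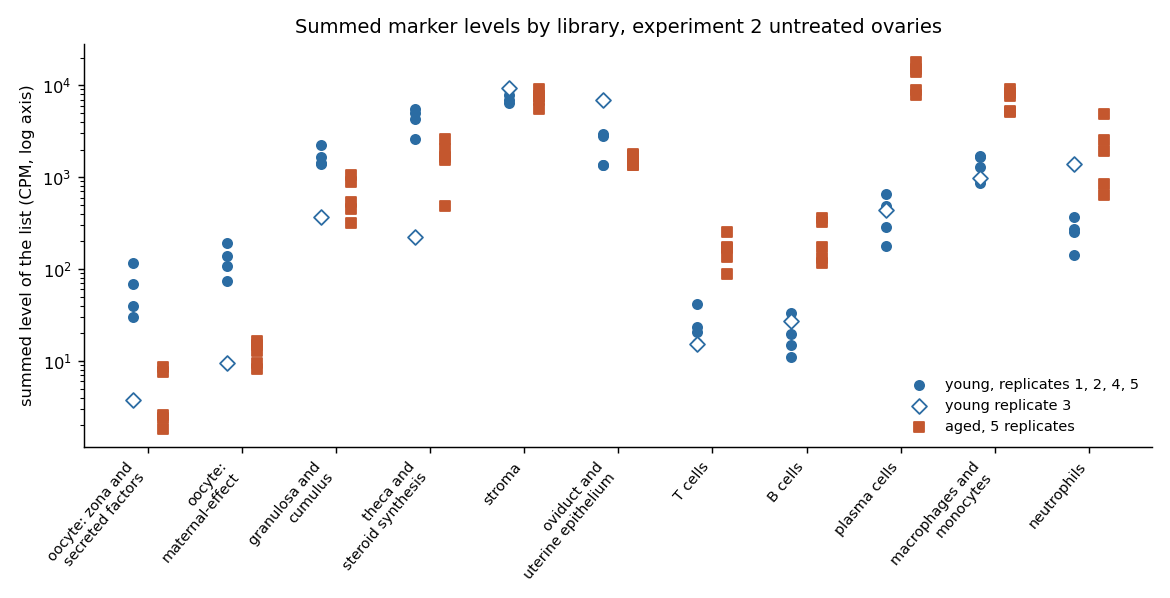
Summed CPM (log axis) of 11 marker lists in each library, with filled circles for young replicates 1, 2, 4 and 5, an open diamond for young replicate 3 and squares for the 5 aged replicates. Young replicate 3 sits with the aged libraries for oocyte (3.78 and 9.56 CPM) and granulosa (372 CPM) genes, below all other libraries for steroid genes (221 CPM) and with the young ones for T, B, plasma cell and macrophage genes.

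Of 16309 genes tested, 1705 (10.5%) were called, with 956 (5.86%) higher and 749 (4.59%) lower in aged ovaries, and the median change over all genes was -0.03. All 5 aged libraries lay above all 5 young ones for 1055 genes (6.47%) and below them for 752 genes (4.61%). Without young replicate 3, 1812 genes were called in the fit with all other experiment 2 libraries. Leaving out each untreated library in turn gave 1171 to 1812 called genes, the lowest without young replicate 1.

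The 12 largest rises named by the rule were those of the myeloid genes Ngp, Clec4e, S100a8, S100a9 and Serpinb2, the chemokine genes Cxcl2 and Cxcl5, Glycam1 and 4 immunoglobulin heavy chain genes. S100a8, a subunit of calprotectin, the calcium-binding protein that neutrophils carry in quantity, stood at 1.54, 1.73, 7.05, 3.47 and 3.95 CPM in young replicates 1 to 5 and at 662, 1295, 2241, 210 and 286 CPM in aged replicates 1 to 5. Every aged library lay above every young one, although the aged libraries themselves spread about 10-fold. The change was 8.04 ± 0.89 (adjusted p = 0.00010), and that of its partner S100a9 was 7.92 ± 0.86 (adjusted p = 9.1e-05). Ngp, a granule protein of developing neutrophils, had 0 counts in all young libraries and 2.11, 22.3, 44.8, 1.28 and 13.1 CPM in the aged ones, at least 235-fold higher against a floor of 3 counts over the young group. Clec4e, a receptor that myeloid cells use to sense damaged cells and mycobacterial lipid, was at 0 CPM in 4 young libraries and 0.632 CPM in the fifth, and stood at 66.0, 28.8, 132, 28.4 and 4.02 CPM in aged ones, a change of 8.46 ± 1.16 (adjusted p = 0.00045).

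Of 18 listed neutrophil genes 16 were tested after the filter on low counts, and 9 rose, 0 fell and 7 were not called (median 2.45). Without young replicate 3 the count was again 9 and 0, with a median of 3.52. Genes nearly silent in young libraries, such as Ngp, passed that filter through the aged ones. Counts and medians of this list and of the later lists with rises are therefore descriptions only. Among the tested genes not called were Ly6g (-0.16) and Ltf (0.11), which mature neutrophils and their granules carry, and Lcn2 (-1.24), which epithelia also make. The summed list ran from 640 to 4932 CPM in aged libraries and was highest in aged replicate 3. Without that library S100a8 changed by 7.42, S100a9 by 7.12, Ngp by 9.67 and Clec4e by 7.76, all still called. Clec4e changed by 12.10 without young replicate 4, which held its only young counts, and S100a9 by 8.52 without young replicate 3.

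Saa3, an acute-phase apolipoprotein that stroma, fat and macrophages make under inflammation, stood at 15, 46.1, 15.1, 51.9 and 29.0 CPM in young libraries and at 4575, 1568, 3561, 1222 and 448 CPM in aged ones. The lowest aged library was thus above the highest young one, and the change was 6.18 ± 0.75 (adjusted p = 0.00018). Serpinb2, an inhibitor of plasminogen activators that activated macrophages make, changed by 7.21 ± 1.5 (adjusted p = 0.0059), from 0 to 0.737 CPM in young to 58.4, 6.05, 70.7, 3.93 and 4.02 CPM in aged libraries. Aged replicates 1 and 3 carried most of it, and the change was 6.55 without aged replicate 3 and 9.41 without young replicate 4. With limma-voom, which weights libraries by quality, Ngp (adjusted p = 0.21), Clec4e (0.11) and Serpinb2 (0.22) lost their calls.

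Chemokines, which draw leukocytes into tissue, rose in part. Of the 14 CXC chemokines tested, 7 rose and 0 fell (median change 1.57), and of the 16 CC chemokines 10 rose and 0 fell (median 3.08), with 6 and 10 called without young replicate 3. Cxcl5, a ligand of the neutrophil receptor Cxcr2, stood at 0.661, 0.784, 0.629, 0.105 and 0.0919 CPM in young libraries and at 91.7, 50.1, 49.5, 12.9 and 18.1 CPM in aged ones, a change of 6.66 ± 0.72 (adjusted p = 9.1e-05). Its groups were far apart, with the lowest aged library over 10 CPM and no young library at 1 CPM.

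Cxcl2, a second Cxcr2 ligand, had 1 count in young libraries, in replicate 1, and stood at 30.1, 10.6, 56.0, 1.18 and 1.83 CPM in aged ones, higher by a ratio of 450.8 (95% counting interval 124.5 to 3726). Aged replicates 1 and 3 were again the highest. The fitted change was 8.44 ± 1.47 (adjusted p = 0.0019), 10.74 without young replicate 1, 7.58 without aged replicate 3, and not called with limma-voom (adjusted p = 0.15). Cxcl1, another of these ligands, changed by 3.82 ± 0.73 (adjusted p = 0.0036), and by 4.89 without young replicate 4, its highest young library at 1.58 CPM.

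Cxcl10, which draws T cells under interferon, stood at 1.87, 0.628, 0.755, 5.37 and 1.93 CPM in young and 35.8, 33.8, 36.0, 25.9 and 21.8 CPM in aged libraries. The aged libraries lay close together, and the change was 3.83 ± 0.72 (adjusted p = 0.0031), or 4.49 without young replicate 4. Cxcl13, which draws B cells into follicles of lymphoid tissue, changed by 3.97 ± 0.64, Ccl2, which draws monocytes, by 5.06 ± 0.85, and the macrophage chemokines Ccl9 and Ccl6 by 3.81 ± 0.41 and 2.85 ± 0.35 (adjusted p = 0.0012, 0.0016, 8.7e-05 and 0.00021). All 4 were higher in every aged than in every young library.

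Promoters of 3 of the risen CXC chemokines are printed because they share a motif of the kind that NF-kB binds. The letters searched were GGG, any 2 bases, TT, any 1 base and CC, on both strands, in the 250 bases before RefSeq's start of each gene (build GRCm38.p6), printed 5′ to 3′ on the gene's strand with each match in capitals.
Cxcl1, chr5:90890995-90891244, + strand: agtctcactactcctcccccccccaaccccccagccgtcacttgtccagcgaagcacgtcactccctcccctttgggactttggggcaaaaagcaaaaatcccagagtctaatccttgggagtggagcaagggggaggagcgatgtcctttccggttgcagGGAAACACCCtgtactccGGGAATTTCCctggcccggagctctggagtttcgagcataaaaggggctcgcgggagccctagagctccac
Cxcl2, chr5:90903649-90903898, + strand: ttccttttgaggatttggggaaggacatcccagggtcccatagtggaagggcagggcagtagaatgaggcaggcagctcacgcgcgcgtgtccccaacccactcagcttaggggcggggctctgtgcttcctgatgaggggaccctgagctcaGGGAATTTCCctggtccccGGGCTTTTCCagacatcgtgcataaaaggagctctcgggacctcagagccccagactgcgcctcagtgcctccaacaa
Cxcl10, chr5:92348890-92349139, - strand: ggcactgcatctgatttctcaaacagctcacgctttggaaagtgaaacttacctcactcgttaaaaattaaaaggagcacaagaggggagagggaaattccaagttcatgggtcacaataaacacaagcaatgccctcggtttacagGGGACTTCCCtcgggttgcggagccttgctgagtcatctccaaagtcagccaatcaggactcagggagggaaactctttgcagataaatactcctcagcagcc

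The matches start at -89 and -71 from the start of Cxcl1, at -97 and -78 from that of Cxcl2 and at -103 from that of Cxcl10. Of all 32851 promoters of this length, 1350 (4.11%) held the motif. Among CXC chemokines with a promoter in the table it was in 4 of 11 tested genes and in 3 of the 5 called ones, and among CC chemokines in 2 of 10 tested and 2 of 5 called genes. In the NF-kB list described next it was in 6 of 17 tested and 3 of 10 called genes. A match describes letters and shows no binding.

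In the interleukin 1 pathway both a signal and a brake rose. Il1b, the secreted cytokine that the inflammasome activates, changed by 6.52 ± 0.75 (adjusted p = 0.00013). Il1rn, the antagonist that blocks its receptor, stood at 1.32, 0.784, 0.503, 2.63 and 1.29 CPM in young libraries and at 65.2, 61.8, 154, 48.8 and 21.8 CPM in aged ones, a change of 5.71 ± 0.60 (adjusted p = 8.1e-05). In both genes aged replicate 3 was highest and aged replicate 5 lowest, as it was for Vcam1 and Icam1 at the low end. Of 19 genes of the family and inflammasome tested, 8 rose and 0 fell (median 1.76), and 13 rose without young replicate 3.

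Part of the NF-kB genes and of the leukocyte adhesion molecules rose. Of 22 genes for subunits and feedback of NF-kB, 12 rose, 0 fell and 10 did not pass (median 1.15), and 15 rose without young replicate 3. Nfkbie, which encodes the inhibitor IkB epsilon, stood at 4.51, 1.88, 2.14, 2.84 and 2.85 CPM in young and 24.8, 31.6, 29.7, 25.8 and 12.1 CPM in aged libraries, a change of 3.11 ± 0.35 (adjusted p = 0.00012). The subunit gene Nfkb2 changed by 1.63 ± 0.26 and the TNF-induced gene Tnfaip2 by 3.24 ± 0.38 (adjusted p = 0.00097 and 0.00018), while the subunit genes Rela (0.54), Nfkb1 (0.58) and Rel (-0.25) did not pass.

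Vcam1, the endothelial and stromal anchor for lymphocytes and monocytes, stood at 16.6, 23.1, 18.5, 20.8 and 21.8 CPM in young libraries and at 285, 324, 300, 207 and 107 CPM in aged ones. The young libraries were nearly level, and the change was 3.60 ± 0.35 (adjusted p = 5.6e-05). Icam1, the ligand of leukocyte integrins, changed by 2.88 ± 0.35 (adjusted p = 0.00019). Of 17 leukocyte adhesion molecules, 10 rose and 0 fell (median 2.02).

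Of the 30 tested genes on the list of senescence-associated secretory factors, 20 rose and 1 fell (median 2.90), with the same counts without young replicate 3, and many of its members are the chemokines above. Il6 was not tested, as its counts were under the filter. Of 26 genes of cell cycle arrest and p53 targets, 3 rose and 1 fell (median 0.25), against 5.86% higher and 4.59% lower over all genes. Cdkn1a, which encodes the cyclin-dependent kinase inhibitor p21, stood at 14.4, 20.4, 32, 16.2 and 21.2 CPM in young and 38.0, 63.8, 59.5, 54.9 and 33.4 CPM in aged libraries, a change of 1.26 ± 0.24 (adjusted p = 0.0036). Cdkn2a, which encodes the inhibitors p16 and ARF, stood at 1.10, 0, 0, 2.84 and 1.75 CPM in young and 11.7, 9.44, 9.01, 8.45 and 7.40 CPM in aged libraries. For both genes the groups did not overlap, and the change of Cdkn2a was 2.96 ± 0.80 (adjusted p = 0.026). Cdkn2a lost its call without young replicate 1 (2.94, adjusted p = 0.063) or aged replicate 1 (2.86, adjusted p = 0.056) and was 3.56 without young replicate 4.

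Interferon-stimulated genes were mostly not called. Of 41 tested, 7 rose, 0 fell and 34 did not pass, and the median change was 0.53. Without young replicate 3 the count was 15 and the median 0.89. That library's summed level of the list was 3157 CPM, against 1350 to 2579 CPM in the other young and 3385 to 4649 CPM in aged libraries. The 7 were Cxcl10, the guanylate-binding protein genes Gbp5 (2.72 ± 0.38, adjusted p = 0.00055) and Gbp2, the GTPase gene Igtp, the immunoproteasome genes Psmb8 (1.80 ± 0.35, adjusted p = 0.0041) and Psmb9, and Ifitm3, an antiviral membrane protein gene (1.18 ± 0.25, adjusted p = 0.0071). Isg15, a ubiquitin-like modifier made under type I interferon, stood at 8.15, 7.84, 29.7, 16.3 and 13.6 CPM in young and 29.0, 18.1, 49.2, 26.1 and 41.0 CPM in aged libraries. Its groups overlapped through young replicate 3, and the change of 1.11 ± 0.46 did not pass (adjusted p = 0.15).

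Most tested genes of lymphocytes and plasma cells rose. Of 16 T cell genes 11 rose and 0 fell (median 2.91), of 13 B cell genes 8 rose and 0 fell (median 3.66), and of 17 plasma cell genes 11 rose and 0 fell (median 4.99). Without young replicate 3 the counts higher were 11, 10 and 10. All aged libraries lay above all young ones for 11 genes of each list, against 6.47% of all genes tested. Summed plasma cell genes ran from 179 to 648 CPM in young and from 7880 to 17790 CPM in aged libraries.

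Ighm, the heavy chain of IgM, stood at 15, 22.6, 13.0, 21.1 and 17.2 CPM in young and 1688, 2798, 2279, 2406 and 1507 CPM in aged libraries. Both groups were narrow, and the change was 6.91 ± 0.59 (adjusted p = 3.0e-05). The IgG heavy chains were more uneven between mice. Ighg2c stood at 26.6, 763, 498, 142 and 723 CPM in aged libraries and at 0 to 2.20 CPM in young ones (9.85 ± 1.54), Ighg2b at 64.3 to 433 against 0.110 to 2.27 CPM (7.34 ± 0.89), and Ighg3 at 37.8, 88.2, 7.52, 18.1 and 317 CPM against 0 to 1.88 CPM (7.71 ± 1.74). Their adjusted p were 0.00097, 0.00018 and 0.0099, and immunoglobulin genes are so alike that reads may be split between them. Without young replicate 2 the changes of Ighg2c and Ighg3 were 11.78 and 9.08, without aged replicate 5 that of Ighg3 was 6.38, and with limma-voom neither was called (adjusted p = 0.063 and 0.12).

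Among other genes of plasma cells, the light chain Igkc changed by 6.26 ± 0.96, Jchain, which joins IgM and IgA into polymers, by 4.99 ± 0.63, and Mzb1, a chaperone of antibody assembly, by 5.38 ± 0.94. The B cell surface gene Ms4a1, which encodes CD20, changed by 3.74 ± 0.72 and the B cell transcription factor gene Spib by 4.96 ± 0.68. These 5 had adjusted p from 0.00023 to 0.0036, and none of their groups overlapped.

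Cd3e, part of the T cell receptor complex, stood at 0.220, 0, 0.378, 0.316 and 0.0919 CPM in young and 2.69, 8.52, 8.73, 6.68 and 7.22 CPM in aged libraries, a change of 4.97 ± 0.65 (adjusted p = 0.00031). Trbc2, a constant region of the receptor's beta chain, changed by 3.30 ± 0.54 (adjusted p = 0.0013). Gzmk, a granzyme of memory-like cytotoxic T cells, had 0 counts in young libraries and 2.61, 2.38, 3.53, 7.17 and 2.38 CPM in aged ones, at least 51.3-fold higher. Of 10 genes of cytotoxic lymphocytes and NK cells 3 rose, among them Ccl5 (3.27 ± 0.63, adjusted p = 0.0036).

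Glycam1, a ligand of L-selectin known from the high endothelial venules through which lymphocytes enter lymph nodes, had young counts only in replicate 3 (0.881 CPM) and stood at 13.6, 28.9, 57.7, 59.4 and 142 CPM in aged libraries. The change was 8.43 ± 1.09 (adjusted p = 0.00027), 12.35 without young replicate 3 and 7.82 without aged replicate 5. It was the only called gene of the 7 tested from the list of such venules. Blood vessel endothelium as a whole showed 0 of 13 genes called.

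Most tested genes of macrophages rose. Of 18 macrophage and monocyte genes 12 rose and 0 fell (median 1.82), and of 13 genes of lipid-laden macrophages 10 rose and 0 fell (median 2.29). Without young replicate 3 the counts were 11 and 8. Cd68, a lysosomal membrane protein of macrophages, stood at 11.7, 11.5, 32.7, 11.9 and 19.4 CPM in young and 87.4, 149, 105, 129 and 90.1 CPM in aged libraries (2.69 ± 0.37, adjusted p = 0.00049). The surface receptor Adgre1, which encodes F4/80, changed by 1.55 ± 0.30 and the lysosomal protease gene Ctss by 3.03 ± 0.41 (adjusted p = 0.0037 and 0.00043).

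Gpnmb, a glycoprotein of macrophages laden with lipid, stood at 8.48, 18.2, 2.52, 53.1 and 40.4 CPM in young and 152, 781, 441, 1639 and 702 CPM in aged libraries. It was highest in aged replicate 4, unlike the neutrophil genes, which were among the lowest there, and changed by 4.92 ± 1.00 (adjusted p = 0.0051). Trem2, the lipid receptor of the same cells, changed by 2.29 ± 0.49 (adjusted p = 0.0069). Of 34 lysosome genes 13 rose and 0 fell (median 0.80).

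Genes of antigen presentation and complement rose in part. Of 12 genes of MHC class II presentation 9 rose, of 19 of class I presentation 11 and of 24 complement genes 13. Of 10 genes on the list of Fc gamma receptors and adaptors 7 rose, and 0 fell in each of these lists. Their medians were 2.07, 1.45, 1.62 and 2.20. H2-Aa, a class II chain, changed by 2.16 ± 0.36, and B2m, the light chain of class I molecules, by 1.80 ± 0.27 from a mean of 1294 ± 305 CPM (SD, n = 5) to 4504 ± 920 CPM. Properdin (Cfp) changed by 2.18 ± 0.26, complement C4b by 2.36 ± 0.34 and the receptor gene Fcgr4 by 3.17 ± 0.50. These 5 had adjusted p from 0.00018 to 0.0015, and C4b has a near-identical neighbour with which reads may be shared.

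**Figure D3:**
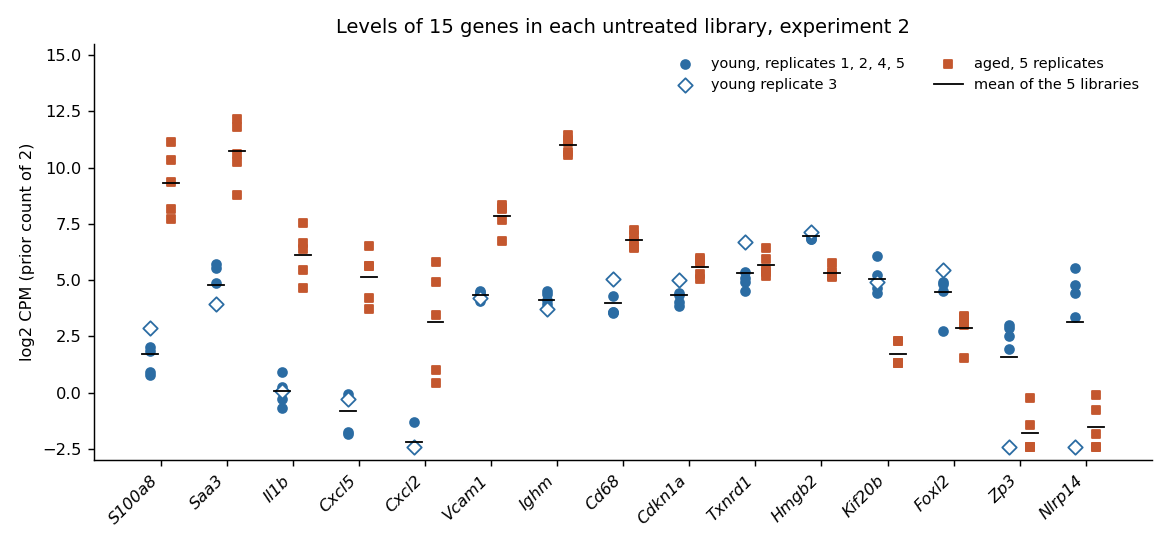
log2 CPM of 15 genes in each library, with circles for young replicates 1, 2, 4 and 5, an open diamond for young replicate 3, squares for the 5 aged replicates and a line at each group's mean. The groups are apart for S100a8 to Cdkn1a and for Hmgb2 and Kif20b, they overlap for Txnrd1 and Foxl2, and young replicate 3 lies at the bottom, at -2.40, for Zp3 and Nlrp14.

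Oocyte genes were lower in aged ovaries. Of 9 listed genes of the zona and of secreted oocyte factors 6 passed the filter on low counts, of which 5 fell and 0 rose (median -5.10), and of 14 maternal-effect genes 10 passed it, of which 8 fell and 0 rose (median -4.56). Genes nearly silent in aged libraries passed that filter through the young ones, so these counts and medians are descriptions only. Without young replicate 3 the counts were 5 and 9, with medians of -5.43 and -4.86. Zp2, a zona glycoprotein, stood at 4.29, 3.29, 0, 6.53 and 8.0 CPM in young libraries and had 0 counts in all aged ones, at least 90.03-fold lower (edgeR adjusted p = 0.0062). The overlap of its groups came from young replicate 3 alone.

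Zp3, the zona glycoprotein that sperm bind, stood at 3.63, 7.22, 0, 7.89 and 5.61 CPM in young and 0, 0.183, 0.650, 0 and 0 CPM in aged libraries, a change of -4.80 ± 1.36 (adjusted p = 0.034). Bmp15, a growth factor that oocytes secrete to granulosa cells, stood at 4.95, 3.45, 0, 10.2 and 6.25 CPM in young and at most 0.274 CPM in aged libraries (-5.40 ± 1.15, adjusted p = 0.0069). Its partner Gdf9 stood at 9.58, 96.8, 3.78, 20.0 and 14.4 CPM in young and 1.31, 1.10, 0.557, 6.97 and 3.56 CPM in aged libraries (-3.42 ± 0.93, adjusted p = 0.028). Young replicate 2 was the highest for Gdf9 and young replicate 3 was at 0 for the other 2.

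Among maternal-effect genes, whose RNA the oocyte stores for the embryo, Nlrp14 stood at 10.02, 46.4, 0, 21.4 and 27.5 CPM in young and 0, 0.0916, 0.743, 0.393 and 0 CPM in aged libraries (-6.40 ± 1.36, adjusted p = 0.0067). Zar1 stood at 7.16, 16.8, 0, 11.6 and 8.73 CPM in young libraries and had 3 counts in aged ones, all in replicate 4, a ratio of 162.4 lower (95% counting interval 55.15 to 791). Zar1 had an adjusted p of 0.0059.

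Leaving out single libraries ended the calls of Zp3 and Gdf9 and moved the values of 3 other oocyte genes. Zp3 lost its call without aged replicate 1, 2, 4 or 5 (adjusted p = 0.069 to 0.076) and was -6.44 without aged replicate 3. Gdf9 lost its call without young replicate 2 (-2.18, adjusted p = 0.12) or aged replicate 1, 2, 3 or 5 (adjusted p = 0.054 to 0.071) and was -4.15 without aged replicate 4. Bmp15 was -6.02 without aged replicate 5, Nlrp14 -7.40 without aged replicate 3 and Zar1 -9.57 without aged replicate 4, and Nlrp14 was not called with limma-voom (adjusted p = 0.092).

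The promoter of Zp3 is printed because E-boxes, which read CANNTG on both strands, are the kind of site through which the oocyte factor FIGLA is known to act on zona genes. It is the 250 bases before RefSeq's start (GRCm38.p6), with E-boxes in capitals.
Zp3, chr5:135979855-135980104, + strand: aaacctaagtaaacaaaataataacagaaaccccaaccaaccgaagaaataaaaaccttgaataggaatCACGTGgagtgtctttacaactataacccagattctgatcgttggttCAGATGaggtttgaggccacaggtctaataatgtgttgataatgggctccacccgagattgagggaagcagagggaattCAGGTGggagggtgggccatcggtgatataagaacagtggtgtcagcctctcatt
The 3 matches start at -181, -134 and -55 from the start. E-boxes are common: 21753 of 32851 promoters (66.2%) held at least 1, as did the promoters of all 3 zona and secreted-factor genes and all 6 maternal-effect genes that were tested and in the table.

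Part of the granulosa genes fell. Of 18 tested 3 fell and 0 rose (median -1.29), and 7 fell without young replicate 3. Among all genes 749 of 16309 were lower, and 763 of 16204 without that library. Foxl2, the transcription factor that keeps granulosa cell identity, stood at 22.7, 6.43, 43.0, 28.6 and 30.2 CPM in young and 2.69, 7.79, 8.36, 10.02 and 10.5 CPM in aged libraries (-1.74 ± 0.42, adjusted p = 0.015). Here young replicate 3 was the highest of its group, and the overlap came from young replicate 2. Esr2, estrogen receptor beta, changed by -3.68 ± 0.99 and Gja1, the gap junction protein between granulosa cells, by -1.17 ± 0.33 (adjusted p = 0.026 and 0.032).

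Esr2 lost its call without young replicate 2 (-2.53, adjusted p = 0.12) or aged replicate 1, 3 or 4 (adjusted p = 0.058 to 0.066). Gja1 lost it in 7 of 10 fits that each left out 1 library (young replicate 1, 2 or 4 or aged replicate 1, 2, 3 or 4, adjusted p = 0.053 to 0.082). Inha, which encodes the inhibin alpha subunit, and Cyp19a1, the aromatase gene, did not pass (-1.17 and 0.52).

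Steroid-making cells showed no called gene among 13 tested (median -0.83), and 2 fell without young replicate 3. Star, which carries cholesterol into mitochondria, stood at 207, 257, 12.3, 368 and 554 CPM in young and 38.3, 182, 144, 134 and 423 CPM in aged libraries (-0.60 ± 0.74, adjusted p = 0.70). Cyp17a1, the androgen-making enzyme of theca cells, ran from 0 to 153 CPM in young and from 1.76 to 18.7 CPM in aged libraries (-2.55 ± 1.32, adjusted p = 0.27). Both spread more within the young group than between groups.

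Of 10 luteal genes 2 fell. Akr1c18, which inactivates progesterone in a regressing corpus luteum, stood at 49.9, 2.35, 0.755, 355 and 820 CPM in young and 1.82, 1.28, 2.32, 2.36 and 18.3 CPM in aged libraries (-5.56 ± 1.53, adjusted p = 0.029). Its young libraries spread from 0.755 to 820 CPM, and the labels give no cycle stage. Its call was lost without young replicate 5 (-4.29, adjusted p = 0.074) or aged replicate 1, 2, 3 or 4 (adjusted p = 0.068 to 0.073), its change was -6.98 without aged replicate 5, and it was not called with limma-voom (adjusted p = 0.084).

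Genes of dividing cells fell in part. Of 34 genes of mitosis and DNA replication 7 fell, 0 rose and 27 did not pass (median -0.46). All aged libraries lay below all young ones for 10 of the 34, against 4.61% of all genes tested. Top2a, the topoisomerase that untangles chromosomes, stood at 147, 189, 108, 94.3 and 95 CPM in young and 27.9, 26, 46.7, 29.6 and 55.2 CPM in aged libraries (-1.77 ± 0.29, adjusted p = 0.0012). The kinetochore gene Cenpf changed by -1.65 ± 0.28 (adjusted p = 0.0018), while the replication helicase genes Mcm2 (0.53) and Mcm7 (-0.25) did not pass.

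Kif20b, Smc2, Aspm and Knl1, which are not on that list, were among the 12 largest falls named by the rule. The rule took only genes whose groups did not overlap. Larger falls with overlapping groups, such as that of the oocyte gene Nlrp14 (-6.40), are outside that ranking. Kif20b, a kinesin of cytokinesis, stood at 37.1, 68.1, 29.7, 21.4 and 24.7 CPM in young and 2.32, 2.29, 4.73, 4.72 and 2.29 CPM in aged libraries (-3.47 ± 0.44, adjusted p = 0.00024). Smc2, a condensin subunit, changed by -2.54 ± 0.33, the spindle pole gene Aspm by -2.63 ± 0.48 and the kinetochore gene Knl1 by -2.56 ± 0.55 (adjusted p = 0.00030, 0.0027 and 0.0073). Hmgb2, a chromatin protein known to decline in senescent cells, was nearly level within groups, with a mean of 125 ± 12.1 CPM (SD, n = 5) in young and 40.9 ± 7.86 CPM in aged libraries, and changed by -1.61 ± 0.23 (adjusted p = 0.00052).

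Txnrd1, the cytosolic thioredoxin reductase that the drugs of the series target, did not differ by age beyond its spread. It stood at 41.5, 22.4, 105, 30.4 and 33.6 CPM in young and 61.7, 43.1, 85.2, 36.1 and 41.2 CPM in aged libraries (0.20 ± 0.47, adjusted p = 0.86). Young replicate 3 was the highest of all 10. Without it the change was 0.74, still not called (adjusted p = 0.31), and without young replicate 2 or aged replicate 3 it was -0.010 and -0.032. Of 22 thioredoxin and peroxiredoxin genes 3 rose and 0 fell (median 0.17), and of 20 selenoprotein genes 1 rose and 1 fell. The shares over all genes tested were 5.86% higher and 4.59% lower.

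NRF2 is the factor that switches on antioxidant genes under oxidative stress. Of its 30 targets tested 4 rose and 0 fell (median 0.20), against 5.86% higher over all genes. Without young replicate 3, 6 rose. Hmox1, which breaks down heme, stood at 6.94, 14.3, 18.4, 6.95 and 9.47 CPM in young and 39.1, 39.7, 38.4, 44.4 and 42.4 CPM in aged libraries, with the aged libraries almost level (1.87 ± 0.32, adjusted p = 0.0019). Srxn1, which repairs oxidised peroxiredoxins, changed by 1.40 ± 0.27 (adjusted p = 0.0036). The 2 ferritin chains, Fth1 and Ftl1, changed by 1.98 ± 0.28 and 1.28 ± 0.24 (adjusted p = 0.00057 and 0.0034), and reads of their pseudogenes may be counted with them. Nqo1, a quinone reductase often used as the marker of NRF2, stood at 1.73 to 5.79 CPM in young and 1.92 to 5.11 CPM in aged libraries (-0.24 ± 0.44, adjusted p = 0.81).

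Few matrix genes were called. Of 20 collagen genes 0 rose and 1 fell (median -0.20), and of 25 genes of fibronectin, microfibrils and elastic fibres 3 rose, 1 fell and 21 did not pass (median 0.05). The collagen gene Col1a1 stood at 2124, 1013, 2907, 532 and 447 CPM in young and 1159, 972, 978, 463 and 626 CPM in aged libraries (-0.74 ± 0.56, adjusted p = 0.48). Of the second list, fibronectin (Fn1) changed by 2.30 ± 0.41 and the elastin cross-linking enzyme gene Loxl1 by 1.12 ± 0.17, while Fbn2, the fibrillin of growing tissue, stood at 31.5, 58.2, 51.7, 16.6 and 20.0 CPM in young and 5.66, 7.61, 4.73, 4.03 and 6.67 CPM in aged libraries (-2.63 ± 0.55). These 3 had adjusted p of 0.0023, 0.00071 and 0.0064, and their groups did not overlap. Of 26 matrix proteases and inhibitors 7 rose and 0 fell. Of 37 genes of the respiratory chain and ATP synthase 0 rose and 3 fell (median -0.08). For all genes tested the shares were 5.86% higher and 4.59% lower.

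**Figure D4:**
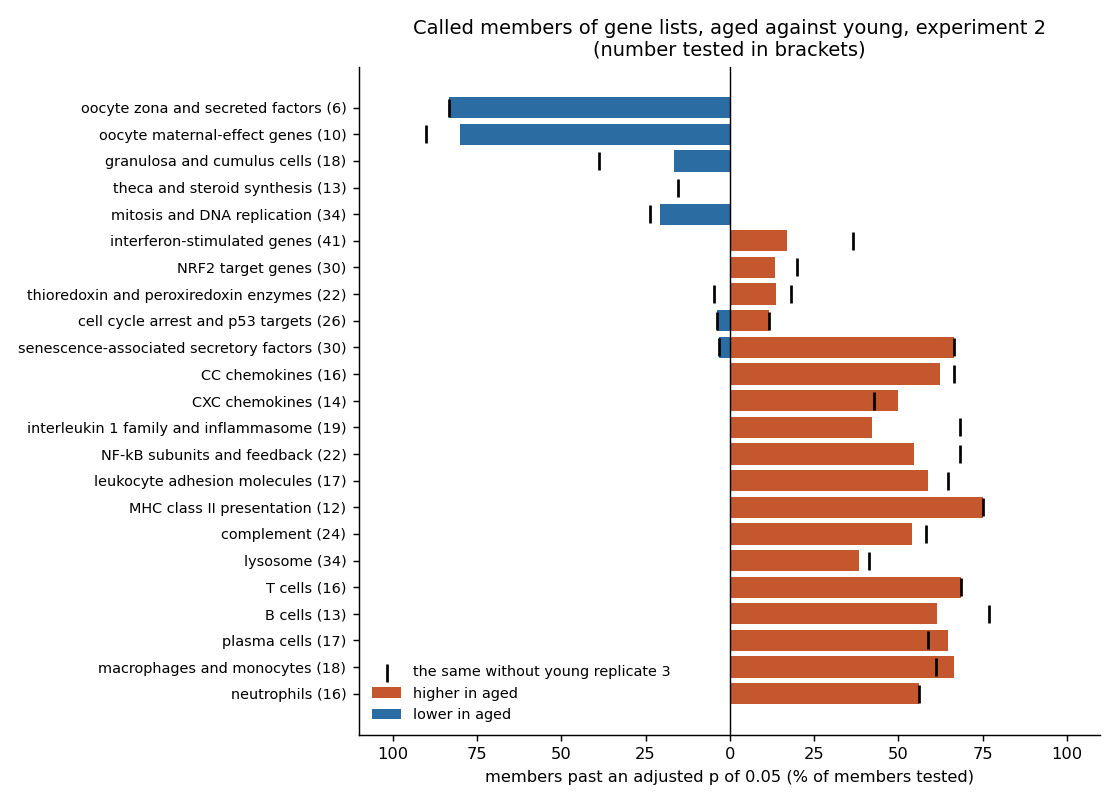
Share of the tested members of 23 gene lists past an adjusted p of 0.05, with bars to the right for higher and to the left for lower in aged ovaries and black ticks for the share without young replicate 3. Over all genes tested 5.86% were higher and 4.59% lower; the interferon-stimulated list moves from 7 to 15 of 41 members and the granulosa list from 3 to 7 of 18 when that library is left out.

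Several of the 12 largest falls named by the rule were of genes on none of the lists used here. The cells that express them were not identified. Wfdc10, a small protease-inhibitor-like gene, stood at 10.9, 13.2, 3.78, 18.1 and 13.1 CPM in young and 0.871, 1.28, 0.928, 0.491 and 1.74 CPM in aged libraries (-3.46 ± 0.58, adjusted p = 0.0015). Slc38a5, an amino acid transporter, changed by -3.62 ± 0.94 (adjusted p = 0.022), and Dcpp3, a secreted protein of the reproductive tract and salivary gland with near-identical copies, by -4.86 ± 1.32 (adjusted p = 0.027), from 9.36, 11.1, 166, 122 and 51.9 CPM in young libraries. Adgrg7, an adhesion G protein-coupled receptor gene, stood at 41.5 CPM in young replicate 3 and at 1.88 to 4.07 CPM in the other young libraries, against at most 0.733 CPM in aged ones (-4.99 ± 1.32, adjusted p = 0.024). Its mean reached the 5 CPM of the naming rule only through young replicate 3. Young replicate 3, low in the summed follicle lists, was the lowest young library for Wfdc10 and Slc38a5 and the highest for Dcpp3 and Adgrg7.

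The last 3 calls lay near the threshold. Without young replicate 3 Adgrg7 changed by -2.95 and was not called (adjusted p = 0.12, or 0.047 when the Auranofin libraries were left out too), its call was also lost without aged replicate 1, 3, 4 or 5 (adjusted p = 0.051 to 0.055), and it was -5.59 without aged replicate 2. Dcpp3 lost its call without young replicate 4 or aged replicate 1, 3, 4 or 5 (-4.97 to -4.54, adjusted p = 0.053 to 0.069) and was -5.78 without aged replicate 2. Slc38a5 lost its call without young replicate 1 or aged replicate 2, 3 or 4 (-3.47 to -3.40, adjusted p = 0.051 to 0.057).

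The comparison of age was also made in experiment 1 and set beside that of experiment 2 in 1 fit of all 27 libraries, which share no library between the 2 contrasts. In that fit 4979 of 17484 genes (28.5%) were called in experiment 1 and 2438 (13.9%) in experiment 2. The test of the difference between the 2 age effects called 0 genes (0.0%) with edgeR, while 2067 had an unadjusted p under 0.05, DESeq2 called 172 and limma-voom 33. In the self-test of that difference on simulated counts over 17484 genes, 25.8% of 4-fold and 2.99% of 2-fold differences were recovered.

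Values of single genes from the 2 experiments are set side by side. Il1b changed by 6.43 ± 0.81 in experiment 1 and 6.51 ± 0.75 in experiment 2, Icam1 by 2.91 ± 0.31 and 2.88 ± 0.30, and Cdkn1a by 1.16 ± 0.25 and 1.26 ± 0.24, with differences of 0.08 ± 1.28, -0.04 ± 0.41 and 0.10 ± 0.35. S100a8 changed by 4.91 ± 0.88 and 8.04 ± 1.00, Saa3 by 3.66 ± 0.76 and 6.17 ± 0.83, and Cxcl1 by 0.84 ± 0.65 and 3.81 ± 0.68. The differences of 3.13 ± 1.13, 2.51 ± 1.00 and 2.97 ± 0.93 did not pass (adjusted p = 0.26, 0.30 and 0.20). On the other side Srxn1 changed by 2.97 ± 0.33 and 1.40 ± 0.30 and Wfdc10 by -6.20 ± 0.60 and -3.47 ± 0.49 (adjusted p of the difference 0.15 and 0.13).

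As lists, the interferon-stimulated genes had a median of 1.57 with 25 of 42 called in experiment 1 and of 0.51 with 8 called in experiment 2. In the fit of experiment 2 alone, 7 of 41 were called (median 0.53). Leaving out young replicate 3 there gave 15 called (median 0.89). Mitosis and replication genes had medians of -1.34 and -0.46 with 22 and 12 of 34 called. Maternal-effect genes had medians of -7.32 and -4.14 with 14 and 10 of 14 called, again as descriptions only, since they passed the filter through the young libraries and young replicate 3 of experiment 2 held little oocyte RNA. Plasma cell genes had medians of 4.73 and 4.99 and senescence-associated secretory factors of 2.63 and 2.81, with 12 and 12 of 17 and 21 and 22 of 32 called. In each of these lists 0 members were called in the test of the difference.

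**Figure D5:**
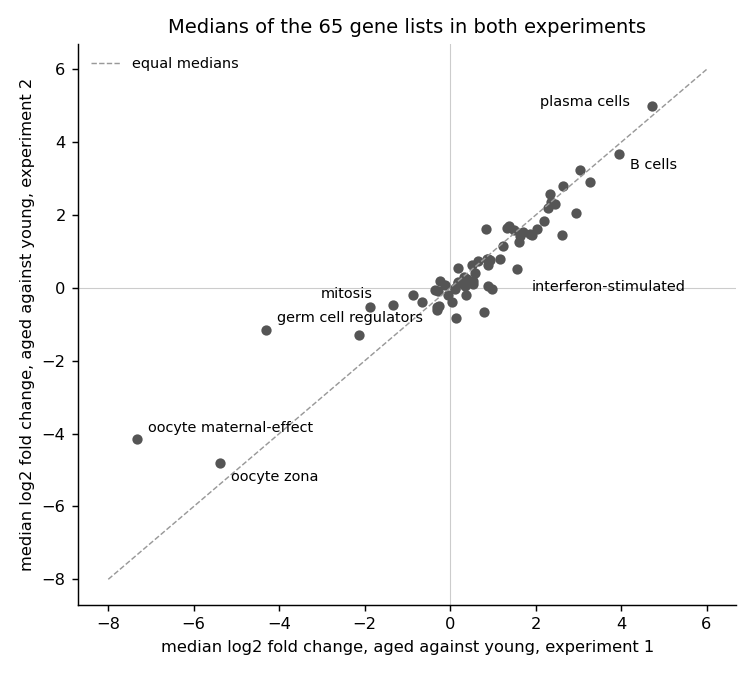
Median log2 fold change, aged against young, of each of the 65 gene lists in experiment 1 (x axis) and experiment 2 (y axis), with a dashed line where the medians are equal. Plasma cell genes lie near the line (4.73 and 4.99), and maternal-effect oocyte genes (-7.32 and -4.14) and interferon-stimulated genes (1.57 and 0.51) lie nearer to 0 in experiment 2. The medians of experiment 2 include young replicate 3, the library that stood apart.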

How the data were processed

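Whole-number counts per gene were used as deposited, in 1 table of 27 libraries with 0 columns of other samples. Per the labels' protocols the kit was Lexogen QuantSeq 3'. RSEM 1.2.3, DESeq2 and mm10 are named, without a role, per the submitters' processing notes. Strand setting and annotation are not given in the sources used here, and overlapping or antisense genes may share reads. Of 51789 gene IDs 51596 matched GENCODE M21 (GRCm38), the source of symbols and positions.

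Groups came from the labels. Counts of the 14 libraries of experiment 2 were fitted with edgeR 4.0.16 in R 4.3.3: TMM scaling, filterByExpr, a mean for each group, quasi-likelihood F tests and Benjamini-Hochberg adjustment. Experiments were compared in 1 fit of 27 libraries. A standard error is the size of the change over the root of its F statistic, and log2 CPM use a prior count of 2. Where a group had 0 counts, the fold is a bound set against 3 counts in that group. Intervals are 95% exact ones. Both cover counting error only.

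The same tests, checked on simulated counts over 16309 genes with 200 changed, recovered 54.5% of 4-fold, 1.49% of 2-fold and 0% of 1.5-fold changes for age in experiment 2. Within groups, 20 pairs of libraries had a chi-square per gene of 23.04 to 119.2, so none was a copy.

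The members, the 65 lists and the tests were chosen with earlier results of these data known. The naming rule took the 12 largest rises and 12 largest falls that were called, averaged 5 CPM or more and did not overlap between groups (provisional symbols left out), the first 3 members of each list, the 4 smallest p of each list with at least 3 called members, and 12 fixed genes. Part of the genes so named is printed. Outside the rule, and picked with their values in view, are Ly6g, Ltf, Lcn2, Rel, Gbp2, Igtp, Psmb9, Igkc, Inha, Cyp19a1, Mcm2 and Mcm7. Lists got no test. The alternatives tried were DESeq2 1.42.0, limma-voom (limma 3.58.1), RLE scaling, other filters and samples, a replicate block and each library left out, and, added after seeing the data, the untreated libraries alone without young replicate 3. Plots used matplotlib 3.10.9 in Python 3.11.15.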

Additional observations from a re-analysis of the deposited data

Results flagged for a closer look

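In 174 groups of 5 libraries examined (the young and the aged libraries of each gene described here), 22 held a library far from the others of its group. The rule flags about 1 in 20 groups of independent, normally spread values. That rate does not hold here, as the genes were picked from these data and share libraries. Where all other libraries of a group had 0 counts, any count was flagged. Values are log2 CPM with a prior count of 2, on which 0 counts read -2.40.

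Young replicate 3 was such a library for 9 genes. It was lowest for the oocyte genes Zp2, Zp3, Bmp15, Nlrp14 and Zar1 (-2.40 for each), where the other young libraries lay at 1.80 or more, for the gap junction gene Gja1 (6.59, against 7.97 to 8.53) and for the cholesterol carrier Star (3.65, against 7.69 to 9.11). It was highest for the receptor gene Adgrg7 (5.38, against 1.05 to 2.09) and for Glycam1 (0.0976, against -2.40).

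Other young libraries stood out singly. Replicate 4 was highest for Clec4e (-0.285) and replicate 1 for Cxcl2 (-1.29), where all others had 0 counts. Replicate 2 was highest for Ccl6 (7.48, against 6.21 to 6.50), and replicate 1 was lowest for Cxcl13 (-0.945, against 1.05 to 1.81).

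Among aged libraries, replicate 5 was lowest for Nfkbie (3.62, against 4.64 to 4.99), Srxn1 (5.64, against 6.07 to 6.13) and Snord89 (-0.63, against 1.10 to 1.40) and highest for Akr1c18 (4.21, against 0.558 to 1.35). Replicate 1 was lowest for Cd3e (1.52, against 2.78 to 3.16), Foxl2 (1.52, against 3.00 to 3.42) and Knl1 (-0.0175, against 1.41 to 1.86). Replicate 3 was lowest for C4b (8.16, against 8.58 to 8.70), and replicate 4 was highest for Zar1 (-1.05), where the others had 0 counts.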

How the results depend on the processing

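The count of genes called for age in experiment 2 (1705) lay between 1487 and 2438 with RLE size factors, DESeq2, no filter, at least 5 CPM, the replicate block, only the 10 untreated libraries or all 27, was 2286 with only the untreated libraries and without young replicate 3 (added after seeing the data), and rose to 2642 with limma-voom. The difference between experiments (0 genes) had 172 with DESeq2, 33 with limma-voom, 6 at a mean of at least 5 CPM, and 0 to 19 when 1 library was left out (19 without young replicate 4 of experiment 2, 7 without young replicate 4 and 2 without aged replicate 2 or 3 of experiment 1, and 1 without young replicate 3 of experiment 2). The cause was not tested. Txnrd1, never called, ranged from -0.032 (without aged replicate 3) to 0.74 (without young replicate 3) when 1 library was left out, and was also below 0 without young replicate 2 (-0.010).

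Replicate numbers are shared between groups, but same-numbered libraries did not deviate together (correlations -0.201 to 0.187, with 1 of 5 young libraries closest to its own number), so they were not taken as pairs. With the replicate number as a block 1487 genes were called for age in experiment 2, and 3969, 2027 and 0 in the joint fit for experiment 1, experiment 2 and the difference. Of the genes described, Zp3 (adjusted p = 0.111), Nlrp14 (0.051), Akr1c18 (0.094), Cdkn2a (0.061) and Dcpp3 (0.058) were not called by edgeR with that block. DESeq2 gave no adjusted p for Adgrg7.

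Depth limits the oocyte genes and others at a few counts, whose folds are bounds or carry wide intervals, and 2-fold changes were seldom recovered in the self-test. When 1 young library other than replicate 3 was left out, Zp2, Zp3, Bmp15 and Zar1 were under the filter and gave no value, nor did Zp2 and Zar1 at a mean of at least 5 CPM or with only the 10 untreated libraries.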

Other observations

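Some of the 12 largest falls named by the rule were not coding genes. Tcea1-ps1, a processed pseudogene of a transcription elongation factor gene, stood at 15.9, 27.1, 28.6, 5.16 and 10.6 CPM in young libraries of experiment 2 and had 0 counts in all 5 aged untreated libraries, at least 305-fold lower (edgeR adjusted p = 0.00046), and also 0 in all 4 aged Auranofin libraries. In experiment 1, on the scale of the joint fit, it stood at 0.905, 7.29, 21.5, 7.41 and 8.90 CPM in young and 0.739, 0, 1.22 and 0 CPM in aged untreated libraries. Reads of a pseudogene may belong to its parent gene. The small nucleolar RNA gene Snord89 stood at 105.2, 415, 13.0, 50.2 and 51.2 CPM in young and 1.96, 2.20, 2.41, 2.46 and 0.457 CPM in aged libraries (-6.06 ± 0.92, edgeR adjusted p = 0.00081, and -4.88 without young replicate 2), and Snora30 changed by -3.38 ± 0.60 (adjusted p = 0.0022, and -3.98 without aged replicate 2). In experiment 1 Snord89 changed by -5.74 ± 0.95 and Snora30 by -2.53 ± 0.63. Snord89 overlaps Gm15832 and Snora30 overlaps Srcap in the annotation, and without strand their reads cannot be told apart.

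By gene class, 7 of 72 small nucleolar RNA genes tested (9.72%) were lower and 1 higher in aged ovaries, with a median change of -1.51, and 17 of 335 processed pseudogenes (5.07%) were lower and 3 higher, with a median of -0.43. Of 14269 protein-coding genes 677 (4.74%) were lower and 894 (6.27%) higher, with a median of -0.01. Immediate early genes, which cells switch on within minutes of handling or stimulation, had 6 of 23 members higher and 0 lower, and their summed level was 2395 CPM in young replicate 3, against 669 to 1041 CPM in the other young and 924 to 1311 CPM in aged libraries. Among genes of metallothioneins and metal transport 3 of 15 rose, and the summed list ran from 3559 to 6373 CPM in young and from 8665 to 12384 CPM in aged libraries. That list includes the ferritin genes Fth1 and Ftl1 described above, which are among those that rose. The sum is therefore not separate from their rises and does not describe metallothioneins alone.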
